A study of Mus musculus with 3 samples.

Results

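The RNA of the signal recognition particle and 7 genes for its proteins and its receptor were followed in the cytosol of mouse macrophages. The set was taken by gene symbol and has 9 genes of the 55536 annotated: the 7SL RNA genes Rn7s1 and Rn7s2, and the protein-coding genes Srp9, Srp14, Srp19, Srp68, Srp72, Srpr and Srprb. All 9 were found in the gene table, and 7 of the 9 are protein-coding. The cells were bone marrow-derived macrophages of strain C57BL/6J, which are primary cells grown from marrow progenitors, and they had been stimulated with Lipid A, the lipid anchor of bacterial lipopolysaccharide that Toll-like receptor 4 senses, at 100 ng/ml during 40 minutes. RNA of the cytosolic fraction, 1 µg per library and depleted of ribosomal RNA, gave 3 libraries of 1 group. The labels number them as biological replicates 1, 2 and 3 but give 1 donor record for all, so p-values refer to the spread of these libraries, part of which may be technical. Age and sex were not collected, per the labels. Neither untreated cells nor another fraction was analysed here, and no value is a response to Lipid A or a ratio between compartments.

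The signal recognition particle binds the signal peptide of a secretory or membrane protein as it leaves the ribosome, slows its elongation, and docks the ribosome at the endoplasmic reticulum. Its scaffold is 7SL RNA, which RNA polymerase III transcribes. The SRP9 and SRP14 proteins sit on the Alu domain of the RNA, the end that acts on elongation, while SRP19, SRP54, SRP68 and SRP72 sit on the S domain, where SRP54 reads the signal peptide. The receptor is a pair of GTPases of the endoplasmic reticulum: the alpha subunit, from Srpr, binds the particle, and the beta subunit, from Srprb, spans the membrane. Macrophages secrete cytokines and carry many surface receptors and lysosomal proteins, which use this route.

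The results on the RNA turn on a gene that the genome holds in duplicate. Rn7s1 (ENSMUSG00000099021.1) and Rn7s2 (ENSMUSG00000099250.1) are annotated on chromosome 12 of mouse build mm10, on opposite strands. Each is a single-exon RNA of 300 bases, and they differ at 0 positions. All 270 stretches of 31 bases in 7SL occur in both copies. No stretch of that length can therefore separate Rn7s1 from Rn7s2, and their sum is the quantity that the reads determine. Of the 270, 236 also occur in annotated transcripts of 16 other genes and 34 do not. The 16 include Gm47287, Gm47305, Gm47295 and Gm47299, microRNA genes annotated over the copies themselves. Sharing with other loci was not counted separately.

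The libraries held 37136495 to 58889061 expected counts in genes, and a count of 0 allowed at most 0.0509 to 0.0808 CPM (counts scaled to a common library total; 3 counts taken as the limit, counting error only). All 7 macrophage markers examined were at or above 1 TPM (transcript abundance scaled by effective length and to a common total), led by Lyz2 at 5974 TPM, whereas neutrophil, lymphocyte, stromal and erythroid markers were at 0.217 TPM or below, with Ly6g, Cd3e and Ncr1 at 0. The nuclear RNAs examined, Malat1, Neat1, Xist and Rn7sk, were each highest in replicate 3 and lowest in replicate 2. Xist had log2 CPM of 6.35, 4.94 and 7.17 in replicates 1, 2 and 3, so replicates 1 and 2 differed as well. Malat1, a long noncoding RNA of nuclear speckles, had log2 CPM of 10.62, 9.89 and 12.81 in replicates 1, 2 and 3. Protein-coding genes held 33.22%, 37.02% and 24.06% of TPM in the same order. C1qa was the 1 macrophage marker called for spread between libraries (edgeR adjusted p = 0.0247, and 0.416 and 1 without replicates 1 and 2).

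The 2 genes of 7SL RNA held the first and the second place in the gene table of every library, both by count and by TPM. Together they took 2660217 counts in replicate 1, 1994235 in replicate 2 and 5507911 in replicate 3. These were shares of the gene counts of 7.03% (7.02 to 7.03), 5.37% (5.36 to 5.38) and 9.35% (9.35 to 9.36), with 95% Wilson bounds in parentheses. Those bounds cover counting error only and say nothing of the spread between libraries, which is tested further on. Without replicate 3 the mean share was 6.20% of counts, against 7.25% ± 2.00 (SD, n = 3) with it, and the mean share of TPM was 52.6% without it and 54.5% with it.

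In TPM the same RNA made up 55.7%, 49.5% and 58.4% of the 3 libraries. A share of TPM differs from a share of counts by the length that counts are divided by. The deposited effective length of 7SL, the number of positions at which a fragment could start, was 87.2, 77.8 and 85.0 bases, or 29.1%, 25.9% and 28.3% of its 300 bases. For the protein-coding members it was 70.2% to 93.7% of the length. Dividing by the annotated length in place of the effective length gave 34.2%, 27.3% and 39.5% of TPM, a mean of 33.7%. The labels give the size range of the libraries as 250 to 400, with no unit. Replicate 3 was highest and replicate 2 lowest by either length.

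The second deposited transcript table, which the authors made from the reads directly, put 7SL at 21.8%, 21.6% and 13.1% of its TPM, and at 6.33%, 5.41% and 7.29% of its counts. The share of counts was thus lower than in the gene table in replicates 1 and 3 and slightly higher in replicate 2. In the second table, replicate 3 was lowest in TPM and highest in counts. Of that table's TPM, 57.8%, 53.3% and 75.7% stood in 5 other short features, all at a count of 0 in the gene table. There each 7SL copy was no longer first: Gm12895 and Gm12896 stood above it in TPM in 3 of 3 libraries, at 117208, 179400 and 278851 TPM each against 108962, 107838 and 65401, and in replicate 3 also in counts. Gm12895 and Gm12896 are processed pseudogenes of 226 bases, and Gm23935, Gm24245 and Gm24270 are annotated microRNA genes of 57 bases. Each microRNA gene stood at 114484, 58048 and 66393 TPM, above each 7SL copy in replicates 1 and 3 and below it in replicate 2. Their effective length in the gene table was 0, so their count of 0 there is not a measure of absence. With those 5 left out, an alternative chosen after seeing the data, 7SL held 51.6%, 46.2% and 53.8% of the second table's TPM, and replicate 3 was again highest.

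**Figure D1:**
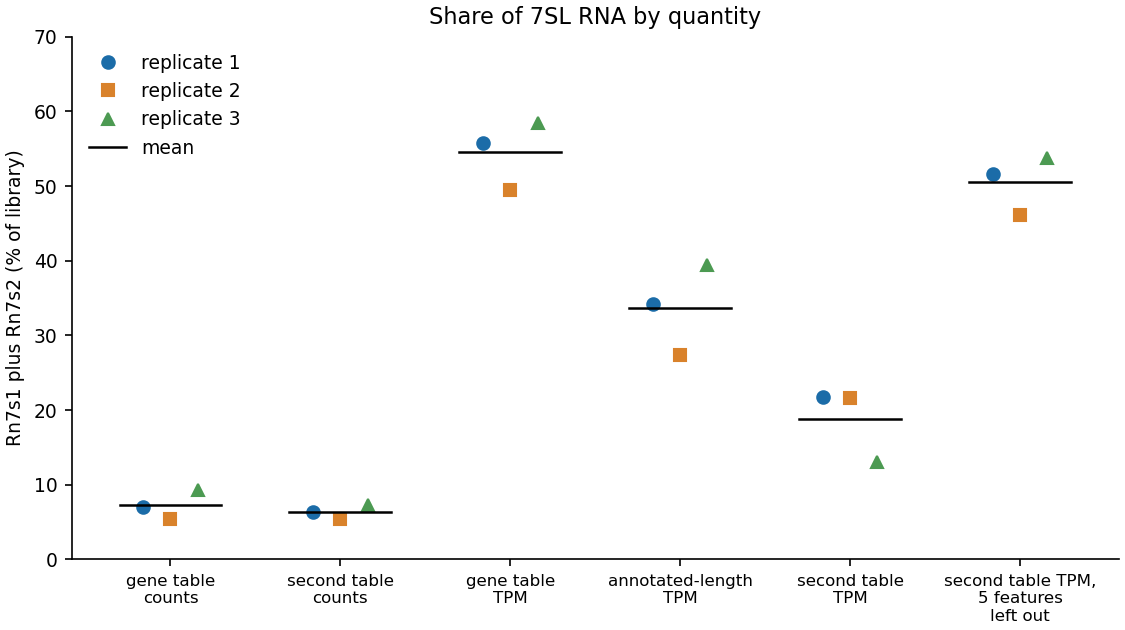
Share of Rn7s1 plus Rn7s2 in each library, in percent of all genes of the table (vertical axis), for 6 ways to state it; symbols are libraries and lines are means. Shares of counts lie between 5.37% and 9.35%, those of TPM between 13.1% and 58.4%, and replicate 3 is highest in each column except the second table's TPM.

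How the counts were divided between the identical copies differed between estimates. The gene table gave Rn7s2 50.4%, 50.3% and 50.1% of the 7SL counts, the posterior means that stand beside it gave 49.7%, 49.8% and 50.2%, and the second table gave 50.0% in all libraries. In replicate 1 the gene table listed Rn7s2 at 281106 TPM, outside its own deposited credibility bounds of 262358 to 275560. Rn7s1, at 276227 TPM there, was within its bounds of 269001 to 282210. The deposited posterior SD of each copy's count in replicate 1 was 17096, while the sum over both was the same by either estimate. The log2 ratio of Rn7s2 to Rn7s1 on the log2(TPM + 1) scale was 0.02 ± 0.01 (SD, n = 3), and with posterior means it was -0.007, so no order of the copies can be given.

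The 16 genes that share a stretch of 31 bases with 7SL took 95.9, 66.9 and 262 expected counts together. Of 9 other genes with an alignment of at least 200 bases at 80% identity or more, Rn7s6 had 81.9, 65.9 and 252 expected counts and Gm26461 had 14.0, 1.00 and 10.0. The other 7 genes, such as Gm22649, were at 0 in the gene table. All 9 together came to 0.0036%, 0.00336% and 0.00476% of the 7SL counts. The second table placed more on them, 769, 818 and 986 estimated counts. The microRNA genes annotated over the copies were Gm47287 and Gm47305, which lie inside them, and Gm47295 and Gm47299, which run past their ends. They were at 0 counts in all 3 libraries of the gene table. With only 70 to 80 bases each, their count of 0 is not read as a measure of absence.

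Among the protein-coding members, Srp14 was the highest. Its product binds the Alu domain as a dimer with SRP9. Srp14 (ENSMUSG00000009549.14, chr2:118475850-118479711, minus strand) stood at 60.1, 64.6 and 43.4 TPM (56.0 ± 11.2, SD, n = 3), which is percentile 92.7 of the 11458 protein-coding genes detected at 0.1 TPM or more. Its partner Srp9 (ENSMUSG00000026511.7, chr1:182124737-182132407, plus strand) stood at 23.5, 22.8 and 19.3 TPM (21.9 ± 2.25). Srp14 lay above Srp9 in 3 of 3 libraries and the ranges did not overlap. Their log2 ratio was 1.32, 1.46 and 1.12, or 2.46-fold on the log2(TPM + 1) scale, a mean of 1.30 ± 0.17. An exact two-sided sign-flip permutation test gave p = 0.25, the smallest that 3 libraries allow. Counts without length gave a smaller log2 ratio of 0.35 ± 0.15. The annotated main transcript of Srp14 has 798 bases and that of Srp9 1367. The effective lengths, by which TPM is scaled, were 574 and 1127 bases in replicate 1.

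Among the S-domain proteins, Srp72 was the highest single member and Srp68 and Srp19 were close to each other. Srp72 (ENSMUSG00000036323.14, chr5:76974683-76999937, plus strand), whose product forms a dimer with SRP68, stood at 19.7, 22.3 and 14.2 TPM (18.8 ± 4.15, SD, n = 3). Srp68 (ENSMUSG00000020780.15, chr11:116245166-116274217, minus strand) stood at 16.9, 16.4 and 11.9 TPM (15.1 ± 2.76). Srp68 was below Srp72 in 3 of 3 libraries, by log2 ratios of -0.21, -0.42 and -0.24 (mean -0.29 ± 0.12; exact two-sided sign-flip permutation p = 0.25, the smallest possible). Srp19 (ENSMUSG00000014504.16, chr18:34330847-34336599, plus strand), whose product clamps the S domain so that SRP54 can join, stood at 15.1, 17.0 and 11.2 TPM (14.4 ± 2.96). Its level did not differ from that of Srp68 beyond the spread between libraries.

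The signal-peptide-binding subunit SRP54 is not a member of the set, and mouse has its gene in 3 copies. The main transcripts of Srp54a, Srp54b and Srp54c were 99.6% to 100% identical over 1515 to 2317 aligned bases, so their division is uncertain. Summed, they stood at 48.3, 50.6 and 43.1 TPM (47.3 ± 3.85, SD, n = 3). That sum was nearer to Srp14 than to the other S-domain genes in each library. Singly they were listed at 22.1, 10.6 and 14.7 TPM.

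The receptor subunits differed from each other. Srpr (ENSMUSG00000032042.11, chr9:35200175-35247973, plus strand), the alpha subunit, stood at 25.9, 25.2 and 18.4 TPM (23.1 ± 4.14, SD, n = 3). Srprb (ENSMUSG00000032553.14, chr9:103188032-103202137, minus strand), the beta subunit that anchors it, was the lowest member at 8.12, 9.72 and 6.84 TPM (8.23 ± 1.44), percentile 57.4 of the detected protein-coding genes. The ranges did not overlap. The log2 ratio was 1.56, 1.29 and 1.30, or 2.61-fold, with a mean of 1.38 ± 0.15 (exact two-sided sign-flip permutation p = 0.25, the smallest possible). Srpr is annotated over Tirap, Foxred1 and Fam118b on the other strand, and the sources used here do not say if counting used the strand.

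**Figure D2:**
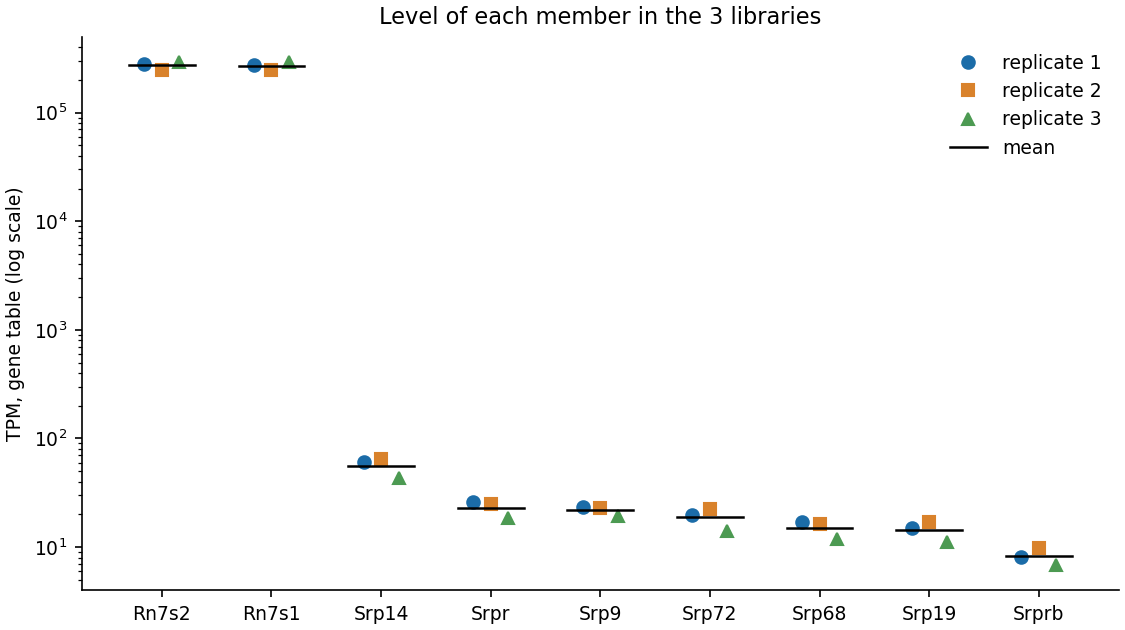
Level of each of the 9 genes in TPM of the gene table on a log axis (vertical), ordered by mean; symbols are the 3 libraries and lines are means. The 7SL copies lie between 246296 and 292746 TPM in single libraries and the protein-coding members between 6.84 and 64.6 TPM, with replicate 3 the lowest library for each of the latter.

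By mean TPM the order was Rn7s2 and Rn7s1, then Srp14, Srpr, Srp9, Srp72, Srp68, Srp19 and Srprb. Neighbours were taken to differ beyond their spread where the within-library log2 difference had 1 sign in 3 of 3 libraries and a mean above 2 SDs. That held for 4 of 8 neighbouring pairs: Rn7s1 over Srp14, Srp14 over Srpr, Srp72 over Srp68, and Srp19 over Srprb. Srpr and Srp9 did not differ in this way, nor did Srp9 and Srp72, nor Srp68 and Srp19. Srpr and Srp72 are not neighbours and were not compared by this rule, and Srpr lay above Srp72 in 3 of 3 libraries. In CPM, which carries no length, the order was Srpr, Srp72, Srp68, Srp14, Srp9, Srprb and Srp19 after the RNA copies.

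7SL RNA stood 9272, 7662 and 13467 times above Srp14 in TPM. With the annotated length the ratio was 3743, 2830 and 5327, from the second table's values 7837, 6767 and 10316, and in counts 1408, 1079 and 2003. The size of the distance moved with the length used, yet replicate 3 had the highest ratio and replicate 2 the lowest in all 4 ways. On the log2(TPM + 1) scale the mean was 13.24 ± 0.41 (SD, n = 3), and 13.02 without replicate 3.

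How steady a member looked depended on the scale. In TPM the coefficient of variation was 8.43% for Rn7s1 and 8.28% for Rn7s2, below those of the coding members, 10.3% to 22.1%. In TPM, 7 of 7 were lowest in replicate 3, the library in which protein-coding genes as a class held the smallest share. Rescaled to the sum over protein-coding genes, Srp14 stood at 180.9, 174.6 and 180.2, Srp19 at 45.4, 45.8 and 46.4, and Srp72 at 59.4, 60.3 and 59.0 TPM. This scale evens out coding genes as a class by construction. The coefficients of variation were then 1.02% to 13.2% for the coding members and 30.97% and 30.51% for Rn7s1 and Rn7s2. That of Srp9 went the other way from the other 6, from 10.3% to 13.2%. The summed 7 coding members were 509.9, 480.9 and 520.3 TPM on that scale, a highest-to-lowest ratio of 1.08, while 7SL on the same scale had a ratio of 1.82. Between replicates 1 and 2 alone these ratios were 1.06 and 1.25. Srp9 had the widest range of the 7, at 1.30.

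Spread between the libraries was then tested over the whole table with edgeR's goodness-of-fit test on rounded expected counts, which asks whether a gene varied more than genes of its level usually do. It called 209 of 12250 genes, 1.71%, at an adjusted p of 0.05. Of the 9 members, 9 were tested and 0 were called. At an unadjusted p of 0.05, 753 genes (6.15%) and 2 of 9 members passed. In the edgeR fit across all genes, adjusted p was 0.635 for Rn7s1 and 0.656 for Rn7s2, from unadjusted values of 0.0313 and 0.0337. The copies share their reads, so these are 1 measurement. They were also the 2 highest genes by count in every library, so the trend at their level rests in part on themselves. Neither stayed under 0.05 without replicate 3 (unadjusted 0.127 and 0.118) or without replicate 2 (0.152 and 0.168). The coding members had unadjusted p-values from 0.482 for Srp9 to 0.982 for Srp14.

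On the scale of that test, log2 CPM with TMM normalization, the 7SL sum was 16.10, 15.66 and 16.57 (SD 0.45). SDs of the 7 coding members ran from 0.024 for Srp14 to 0.154 for Srp9, with a median of 0.069 against 0.161 over all genes tested, and 7 of 7 lay below that median. That median covers genes of all levels and was not matched to the counts of the members. It therefore does not say if they were steadier than genes of like level. The nuclear RNAs varied in the same order as 7SL, with replicate 3 highest and replicate 2 lowest. Malat1, Neat1, Xist and Rn7sk were called, 4 of 4. Without replicate 3, 2 of 4 were called, and Malat1 and Rn7sk were not (edgeR adjusted p = 0.398 and 0.999). Without replicate 2, Xist was at 0.0502. Rn7sk, the polymerase III transcript that holds the elongation factor P-TEFb inactive, stood at 12.91, 12.57 and 14.11 (edgeR adjusted p = 7.9e-04), and Neat1, the scaffold of paraspeckles, at 8.04, 6.86 and 9.51. Rn7s1 was 0.91 higher in replicate 3 than in replicate 2. The part of nuclear RNA in the differences of 7SL between libraries was not tested, and in bulk RNA more RNA per cell and more cells of a kind cannot be told apart. Of the 7 coding members, 1, Srp9, had the same order of libraries.

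**Figure D3:**
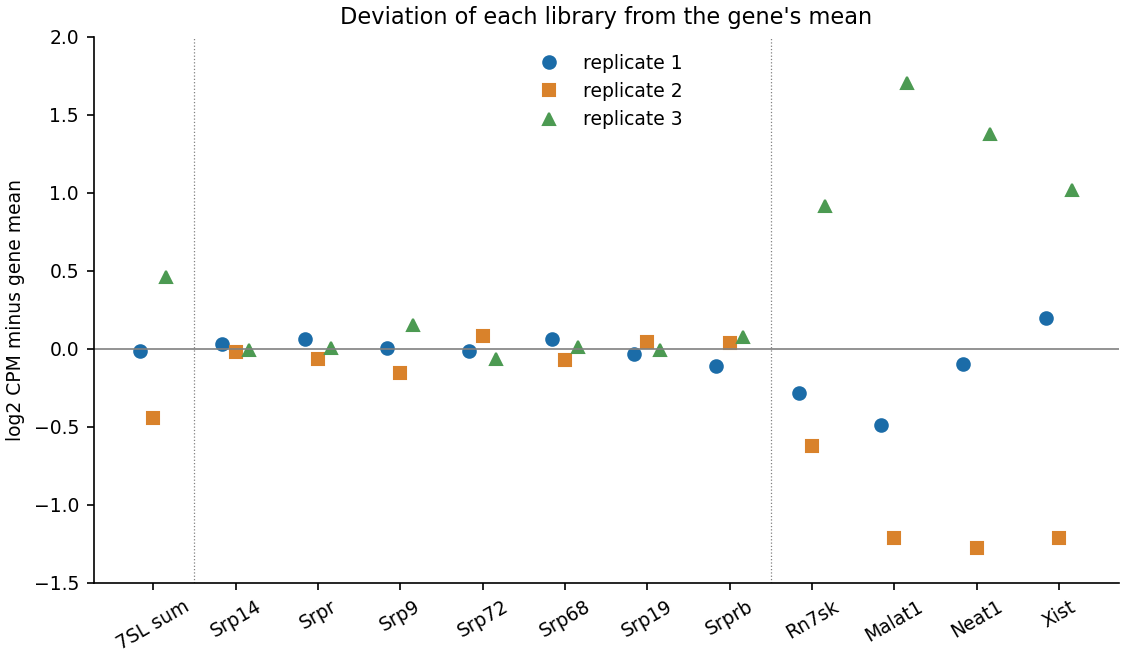
Log2 CPM (TMM) of each library minus the gene's mean over the 3 libraries (vertical axis), for the 7SL sum, the 7 coding members and 4 nuclear RNAs, separated by dotted lines. The coding members keep close to 0, the 7SL sum spans 15.66 to 16.57 in log2 CPM, and Malat1 spans 9.89 to 12.81.

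The genes whose pattern over the 3 libraries was most like that of the 7SL sum were taken from 5643 genes with a mean count of at least 1000, by the largest gap between centred log2 CPM values in any library. They were Rnf128 (gap 0.019), Itgav (0.042), Rnf149 (0.062), Ccnl2 (0.07) and Tpcn2 (0.072). Rnf128 stood at 6.44, 5.99 and 6.88 log2 CPM. With 3 points per gene many patterns are alike, so these names are a description of the libraries.

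Each coding member was read mainly from 1 transcript. In the first transcript table, the main transcript held on average 94.4% (Srp19-201) to 99.9% (Srprb-201) of its gene's TPM. In the second table the main transcripts of Srp9, Srp14, Srp19, Srp68 and Srprb held 87.8% (Srp19-201 in replicate 2) or more in each library. It put 77.7% ± 7.56 (SD, n = 3) in Srp72-201 and 89.2% ± 9.81 in Srpr-201. The difference lay in shorter protein-coding transcripts. Srp72-202, with 17 exons where Srp72-201 has 19, was at 0 in the first table and at 0.854, 3.20 and 0.859 TPM in the second. Srpr-203 was at 0 in the first and at 1.52, 0 and 1.01 TPM in the second.

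Transcripts that keep an intron are mostly nuclear in general, and they took small shares here. For Srp72, which has 7 annotated, they held 2.64%, 0.53% and 4.27% of the gene's TPM in replicates 1, 2 and 3. Srp9 had 0.27%, 0.12% and 0.56%, and Srp19 0.18%, 0.08% and 0.56%. Srpr reached 0.55% and Srprb 0.21% (0.01 TPM), both in replicate 3 alone. These shares are from the first transcript table. The second also gave Srpr 1.07% and Srprb 0.38% in replicate 1, against 2.10% and 0.97% in replicate 3. In each of these 5 genes replicate 3 had the largest share in both tables. For Srp72 in the first table this rested on a transcript of 764 bases (0.18%, 0% and 2.86%). Some others were highest in replicate 1 (0.86% and 1.07%, against 0.42% and 0.40% in replicate 3). Malat1 was also highest in replicate 3, and a link was not tested. Srp14 and Srp68 have no such transcript in the annotation.

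The other genes of the route are given from lists chosen by function. At the membrane, all 12 genes of the Sec61 channel and its associated proteins were at 1 TPM or more, with a median of 26.3 TPM. The highest were Ssr3, of the translocon-associated complex, at 54.7 TPM and Sec61b, a subunit of the channel, at 45.9, and the lowest was Sec61a2, the second gene for the pore subunit, at 1.5. Signal peptidase, which removes the signal peptide, had a median of 39.6 TPM over 5 genes, from Spcs3 at 20.1 to Spcs2 at 44.0 and Spcs1 at 66.2. No gene of either list was called for its spread. The median of the 7 coding members of the particle and receptor was 18.8 TPM, against 6.17 over all detected protein-coding genes.

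Oligosaccharyltransferase, which attaches sugar chains as the protein enters, had a median of 30.1 TPM over 12 genes, with Ost4 highest at 76.5, Stt3a, a catalytic subunit, at 50.0 and Tusc3 lowest at 8.99. Ost4 was the 1 gene of the 12 called for spread, at 59.8, 131.9 and 37.7 TPM (edgeR adjusted p = 1.01e-03), and here replicate 2 was highest. That call was lost without replicate 2 (edgeR adjusted p = 1) and without replicate 3 (0.0534). The nascent polypeptide-associated complex, which meets the chain at the ribosome and keeps other chains from the particle, was above every coding member, with Naca at 169.7 TPM and Btf3 at 118.0. Tail-anchored proteins use another route after translation. Its 7 genes had a median of 9.12 TPM, led by Bag6 at 47.0 and the ATPase gene Asna1 at 34.3, with Wrb lowest at 3.11.

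RNA polymerase III, which makes 7SL, was listed together with its factors and regulators. This list had the lowest median of these lists, 4.44 TPM over 23 genes, all at 1 TPM or more and 0 called for spread. The highest were Ssb, whose La protein binds the ends of new polymerase III transcripts, at 29.2 TPM, and Maf1, a repressor of the enzyme, at 25.3. Polr3g was lowest at 1.71.

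**Figure D4:**
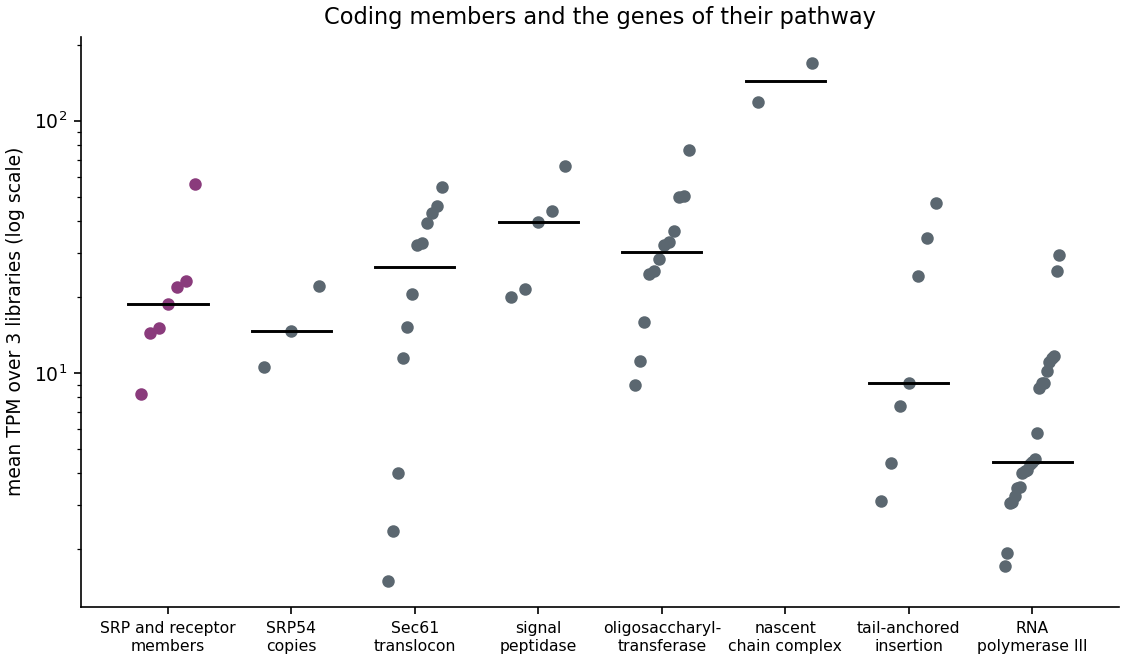
Mean TPM over 3 libraries on a log axis (vertical) for the 7 coding members and for each list of related genes; a point is a gene and a line the list's median. The members' median of 18.8 TPM lies below those of the Sec61, signal peptidase and oligosaccharyltransferase lists and above that of the polymerase III list.

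Of the listed small noncoding RNAs, Rn7sk was the highest after 7SL in the gene table by mean TPM. It had a mean of 56906 TPM and Rpph1, the RNA of ribonuclease P, 46603. In replicate 2 the order was the other way, with Rpph1 at 63504 TPM and Rn7sk at 43426. Rmrp, the RNA of ribonuclease MRP, was called for spread in its ribozyme annotation, at 9.80, 8.95 and 11.21 log2 CPM, with the same order of libraries as 7SL (edgeR adjusted p = 1.65e-09, and 0.156 without replicate 3). A second entry of the same symbol, annotated as a lincRNA, was not called, at 9.32, 8.80 and 9.42 log2 CPM. Rpph1 was not called, at 12.12, 12.97 and 13.18. Terc, the telomerase RNA, was lowest of those with counts, at 2.46 TPM. The Y RNA genes Rny1 and Rny3 were listed at 0 with an effective length of 0 in the gene table, while the second table gave Rny3 28.4, 26.5 and 20.3 TPM, so their 0 is not a measure of absence.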

How the data were processed

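Per the deposited notes, every library came with 3 tables, 1 of genes and 2 of transcripts, for build mm10 and GENCODE M21. Names and versions of the quantification tools were not given in the sources used here. In the gene table and first transcript table the authors deposited expected counts from a transcriptome alignment, TPM scaled by effective length, and the percent of a gene's TPM in each transcript. The second transcript table holds deposited estimated counts and TPM made from the reads directly. Spike-in rows, 0.0533% to 0.314% of counts, were left out of library sizes and tests.

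Members and lists were chosen with earlier results of these data known. Ratios were differences of log2(TPM + 1), with exact sign-flip permutation tests. Spread was tested on rounded expected counts in edgeR 4.0.16 (filterByExpr, TMM, intercept-only fit, trended dispersion, goodness of fit, Benjamini-Hochberg at 0.05), which was tested on simulated data. Wilson intervals are at 95%. Transcripts were aligned with BLAST 2.17.0; the letters of the RNA are not reported here. The genes named were all 9 members and, of each pathway list, the 2 highest, the lowest, any at 0 in every library and any called for spread. Annotated length, CPM, the second table, posterior means, rescaling to coding genes, other normalization and filters, and leaving out each library were the alternatives.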

Additional observations from a re-analysis of the deposited data

How the results depend on the processing

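No paired analysis was possible because all libraries belong to 1 group. Over 12 results and 91 alternatives, 72 stayed within the limits set for them, 18 moved and 1 reversed. Some of the 72 could not have moved. A mean with 1 of 3 libraries left out cannot shift by 1 SD. Length and scaling cancel in the ratio of the identical copies, and posterior means left the 7SL count sum unchanged. The 72 are therefore not a measure of stability. The mean 7SL share of TPM, 54.5%, was 33.7% by annotated length, 7.25% in CPM and 18.8% in the second table. The median TPM of the coding members, 18.8, was 37.0 by annotated length, 8.32 in the second table and 59.6 rescaled to coding genes. The Rn7s2 share of 7SL counts, 50.3%, was 50.0% in the second table and 49.9% by posterior means, and the log2 ratio to Rn7s1, 0.016, was 0 and -0.007. Srp14 over Srp9 (log2 1.30) was 1.10 by annotated length and 0.348 in CPM, Srp68 over Srp72 (-0.289) was -0.835 in CPM, and 7SL over Srp14 (13.24) was 11.89 by annotated length and 10.47 in CPM. The 209 genes with spread above the trend were 115 among coding genes alone and 59 to 129 with a library left out, the 59 being without replicate 3. No member tested was called under any of these, and the 7SL copies were not tested among coding genes alone or when left out. For the order of the members only the number of separated neighbours was compared (4 of 8, and 4 to 6 under the alternatives), and CPM rearranged the coding members. For single members, 36 of 63 alternative TPM values lay within 1 SD and 27 moved. The 36 were posterior means and means with a library left out, and the latter could not have moved. Annotated length, the second table and rescaling to coding genes moved every member. Identical copies and short effective lengths limit what depth can resolve for 7SL.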
